A study of Rattus norvegicus with 11 samples.

Results

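Genes of arachidonic acid release and conversion were followed through the ileum of rats with severe acute pancreatitis (SAP) that received vehicle or the compound JZL184. They were chosen by name, with earlier results of these data known, as genes acting on the fatty acid that monoacylglycerol lipase (MAGL), the target of JZL184, sets free. All 10 members (Ptgs1, Ptgs2, Ptges, Ptgis, Pla2g4a, Hpgd, Ptger4, Ptger2, Alox5 and Alox15) were found among the 24481 genes of the read count table and in the table of FPKM, fragment counts scaled for transcript length and library size.

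The rats were male SD (Sprague-Dawley) rats of 6 to 8 weeks, an outbred stock, and the labels name no allele or transgene in any group. SAP was produced by infusing sodium taurocholate into the pancreatic duct, and the injections followed 24 h after the operation. The control group (3 libraries) and the SAP group (4 libraries) were given vehicle into the peritoneum, the JZL184 group (4 libraries) was SAP rats given JZL184 at 10 mg/kg, and the ileum was taken 24 h later. The labels call the control treatment a control plasmid and the titles of the SAP libraries speak of oil, where the methods describe vehicle for both. The methods divide the rats into the 3 groups after the surgery, and no separate operation for the control group is described in the sources used here. Whether every library is a different rat is not stated, so the p-values measure the spread between libraries.

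Arachidonic acid is set free from membrane phospholipids by phospholipases A2 and, in several tissues, from the endocannabinoid 2-arachidonoylglycerol by MAGL. Cyclooxygenases turn it into prostaglandin H2, from which terminal synthases make prostaglandin E2, prostacyclin and other prostanoids, while lipoxygenases oxygenate the same fatty acid to leukotrienes and hydroxylated fatty acids. In the gut, prostaglandin E2 is known for its part in mucosal repair, secretion and inflammation, and it acts on a small family of G protein-coupled receptors until it is oxidized inside cells.

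Between 26341299 and 33847135 reads per library lay on genes. Between control libraries 1 and 2 the reads of a gene gave an average chi-square of 2.81 (genes with at least 20 reads), where the other pairs of libraries of a group gave 77.5 to 563, so these libraries differed by little beyond counting error. They were counted as 1 sample, with reads summed and FPKM averaged, which leaves n = 2 in the control group. SAP library 2 held only 20 reads for 3 genes of the Y chromosome (Uty, Kdm5d and Eif2s3y) together, against 1222 to 4665 in each other library, although the methods describe male rats. In SAP libraries 1 and 2 the 25% longest genes lay above the 25% shortest by a median of 0.80 and 0.86 on the log2 scale, relative to the mean of all samples, whereas the other samples lay between -0.51 and 0.14. The tissue is labelled as intestinal epithelial cells, but smooth muscle markers summed to 1124 to 5308 CPM (counts scaled to library size) beside enterocyte markers at 5944 to 21859 CPM, so that the libraries hold the gut wall. In such bulk tissue, fewer cells of a type and less RNA per cell cannot be told apart.

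The promoters of 3 members are shown because among the members Ptges differed most between JZL184 and SAP on the log2 scale and because Ptgs2 and Pla2g4a, neighbors on chromosome 13, had their highest levels in the same 2 libraries. RefSeq's rat promoter table (build GRCr8, 250 bases before to 50 after each start) held 8 of the 10 members, and Ptgis and Alox15 had no entry. The 250 bases before each start are printed 5′ to 3′ on the gene's strand, with capitals for letters of the motifs searched for on both strands in the whole window, which were the GC box GGGCGG, the E-box CACGTG, the TATA box TATAAA and the EGR element GCGNGGGCG. The first is Ptges at chr3:34586988-34587237 on the minus strand, the second Ptgs2 at chr13:64713813-64714062 on the plus strand, and the third Pla2g4a at chr13:64572353-64572602 on the minus strand.
Ptges: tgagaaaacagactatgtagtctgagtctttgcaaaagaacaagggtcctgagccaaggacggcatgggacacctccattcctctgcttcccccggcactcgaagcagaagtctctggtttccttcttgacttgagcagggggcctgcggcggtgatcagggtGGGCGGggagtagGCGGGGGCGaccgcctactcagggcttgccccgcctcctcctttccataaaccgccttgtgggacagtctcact
Ptgs2: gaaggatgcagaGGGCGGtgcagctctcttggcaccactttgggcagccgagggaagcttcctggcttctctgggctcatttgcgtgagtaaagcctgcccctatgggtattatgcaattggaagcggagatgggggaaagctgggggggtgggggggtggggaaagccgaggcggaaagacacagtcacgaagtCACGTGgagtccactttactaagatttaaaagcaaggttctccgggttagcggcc
Pla2g4a: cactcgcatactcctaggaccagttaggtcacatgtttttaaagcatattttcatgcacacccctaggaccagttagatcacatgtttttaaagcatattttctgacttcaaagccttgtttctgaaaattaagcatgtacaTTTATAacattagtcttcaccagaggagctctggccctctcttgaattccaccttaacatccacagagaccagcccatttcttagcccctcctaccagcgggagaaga

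The Ptges window held a GC box at position -87 and the EGR element at position -74 from the start site. The Ptgs2 window held a GC box at -238 and an E-box, which reads the same on both strands, at -55. The Pla2g4a window held only the letters of the TATA box, on its opposite strand, at -108. Among all 33469 promoters of the table, 33.1% held a GC box, 14.2% a TATA box, 6.42% an E-box and 4.98% the EGR element, and of the 8 members the EGR element was found in Ptges alone. These matches are letters, not measured binding.

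Levels of the members spanned a wide range. Hpgd, the dehydrogenase that inactivates prostaglandin E2, had the highest level of the 10 in every library, at 44.5 to 177 FPKM. Ptgis, Ptges and Ptgs1 lay at 2.04 to 17.5, 1.81 to 11.8 and 2.70 to 6.34 FPKM, and their order differed between libraries. Pla2g4a lay between 0.88 and 5.66 FPKM, above these 3 genes in SAP libraries 1 and 2, and the receptor Ptger4 between 0.39 and 2.19 FPKM. Alox5 lay between 0.24 and 1.44 FPKM, Ptger2 between 0.06 and 0.70, Alox15 between 0.10 and 0.63, and Ptgs2 between 0 and 0.70. At these low levels, Ptgs2, Ptger2, Alox5 and Alox15 averaged under 100 reads per library.

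**Figure D1:**
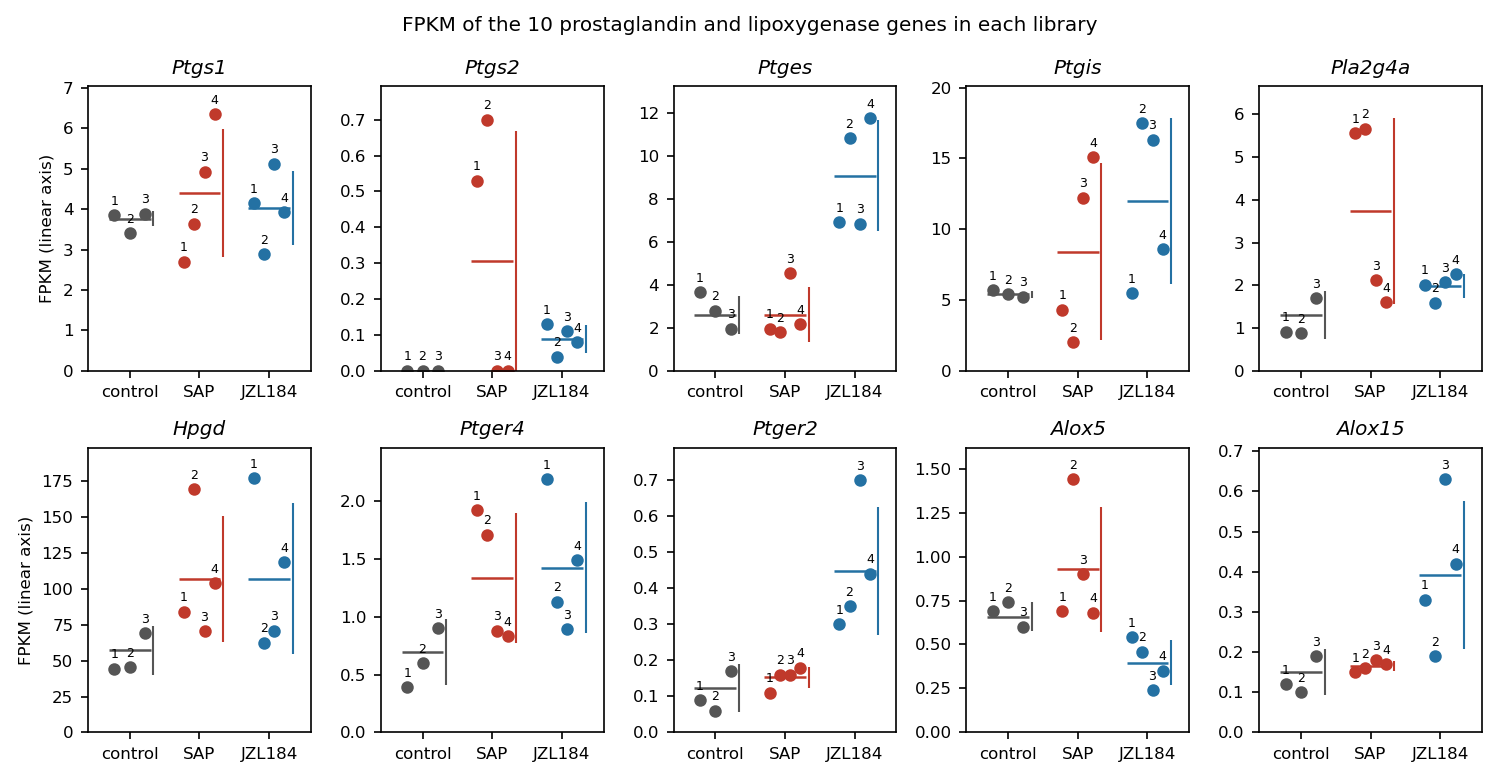
FPKM of each of the 10 genes (linear axes from 0) in each library, numbered by replicate, for the control, SAP and JZL184 groups. Horizontal lines are group means and vertical lines the SD (control libraries 1 and 2 averaged to 1 sample, n = 2, with n = 4 in the other groups). All 4 JZL184 libraries lie above all SAP libraries for Ptges, Ptger2 and Alox15 and below them for Alox5, whereas Ptgs2 and Pla2g4a are highest in SAP libraries 1 and 2.

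The first comparison asked which of these genes differed between SAP and control ileum. None of the 10 members was called, and for none did the normalized counts of the SAP libraries lie wholly apart from those of the controls. Pla2g4a was higher in 2 of the 4 SAP libraries, and among SAP and control libraries Ptgs2 had reads in those same 2 only. Calls required a Benjamini-Hochberg adjusted p below 0.05 over all genes tested and a fold change above 2 or below 0.5. All 10 members passed the low-count filter of edgeR's quasi-likelihood test, Ptgs2 only through its reads in SAP libraries 1 and 2. It failed the filter when either of these was left out. Of the 10, 0 were called by edgeR, DESeq2 or limma-voom or had an unadjusted edgeR p below 0.05. Over all genes, edgeR called 0.0% (9.09% had an unadjusted p below 0.05), DESeq2 called 1.14% and limma-voom 0.0873%, and in 23.0% the groups' normalized counts lay apart. Of the members, 9 (Ptgs2 among them) had a fold change above 1 and 1 below, and their median log2 fold change was 0.42, where that of all 16029 genes tested was 0.06.

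Pla2g4a encodes cytosolic phospholipase A2, the enzyme that releases arachidonic acid on calcium signals. It was measured at 5.55, 5.66, 2.12 and 1.60 FPKM in SAP libraries 1 to 4 and at 0.92, 0.88 and 1.70 FPKM in control libraries 1 to 3. SAP libraries 1 and 2 were far above every control, while library 4 lay below control library 3. The mean was 3.73 ± 2.17 FPKM in the SAP group (SD, n = 4) against 1.30 ± 0.566 in the control group (SD, n = 2), and the log2 fold change was 1.33 (SE 0.58) with an adjusted p of 0.459 by edgeR. Only DESeq2 with control libraries 1 and 2 as separate samples called it, at an adjusted p of 0.0373 by Benjamini-Hochberg, a setting in which 8.91% of all genes were called. Both libraries with high levels, of which library 2 held few reads on Y chromosome genes, are those with the shift toward long genes. With that length trend removed the log2 fold change of Pla2g4a was 1.37, and its transcript, at 3.10 kb, lay at the 43.5th percentile of gene lengths.

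Ptgs2 encodes the inducible cyclooxygenase. It had 36 and 42 reads in SAP libraries 1 and 2 and 0 reads in SAP libraries 3 and 4 and in the 3 control libraries. A count of 0 allows up to 3 reads, or 0.0981 to 0.11 CPM in these 5 libraries. Against that floor over the whole control group (0.035 CPM), the SAP group's 0.635 CPM was at least 18.2-fold higher, a bound that covers counting error only and rests on 2 libraries. Those are the libraries with the shift toward long genes, and SAP library 2 is the one with few reads on Y chromosome genes. The edgeR test gave an adjusted p of 0.459 (DESeq2 0.45). The gene lies next to Pla2g4a on chromosome 13, with no protein-coding gene between them in RefSeq's annotation.

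The constitutive cyclooxygenase Ptgs1 overlapped between groups, with 4.40 ± 1.58 FPKM in SAP (SD, n = 4) and 3.76 ± 0.187 in control libraries (SD, n = 2). Ptges, which makes prostaglandin E2 from prostaglandin H2, had 2.62 ± 1.29 FPKM in SAP and 2.61 ± 0.898 in control libraries. Prostacyclin synthase, Ptgis, spread from 2.04 to 15.09 FPKM over the SAP libraries, around controls of 5.23 to 5.69. SAP libraries 3 and 4 lay above all controls and libraries 1 and 2 below them, the reverse of the order seen for Pla2g4a.

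Hpgd had 107.0 ± 43.8 FPKM in SAP (SD, n = 4) and 57.1 ± 17.3 in control libraries (SD, n = 2), a log2 fold change of 0.74 (SE 0.41, edgeR adjusted p = 0.461). Every SAP library lay above every control in FPKM, from 70.62 upward against 69.32 and below, but the normalized counts overlapped. Ptger4, the EP4 receptor for prostaglandin E2, had 1.34 ± 0.561 FPKM in SAP and 0.698 ± 0.286 in control libraries, with SAP libraries 1 and 2 again the highest at 1.92 and 1.71. Its transcript is long (8.0 kb, the 86.1th percentile), and with the length trend removed its log2 fold change went from 0.76 to 0.27. For Ptgs1, Ptges, Ptgis, Ptger2, Alox5 and Alox15 the log2 fold changes lay between -0.17 and 0.53 with adjusted p values of 0.71 to 0.997 (edgeR), and the sign turned under at least 1 alternative for each of these except Alox5.

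The second comparison asked how these genes differed between SAP rats given JZL184 and SAP rats given vehicle. Ptges and the receptor Ptger2 were higher in all 4 JZL184 libraries than in any SAP library, by 3.47-fold in mean FPKM for Ptges, and so was the lipoxygenase Alox15, while Alox5 was lower in all 4. DESeq2 called Ptges, Ptger2 and Alox15 higher, and limma-voom called Ptges and Ptger2. The edgeR test called none of them, as it called no gene at all. Of the 10 members 9 passed the filter, and Ptgs2 did not. Members called numbered 0 by edgeR (0.0% of all genes), 3 by DESeq2 (all higher, against 3.57% of all genes higher) and 2 by limma-voom (all higher, against 2.18%). At an unadjusted edgeR p below 0.05 were 3 higher and 1 lower, against 10.3% and 11.1% of all 15308 genes tested. The same 4 members had groups that did not overlap, where 6.01% of all genes were higher and 5.72% lower without overlap. The median log2 fold change was 0.28 over the members that passed and -0.05 over all genes.

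**Figure D2:**
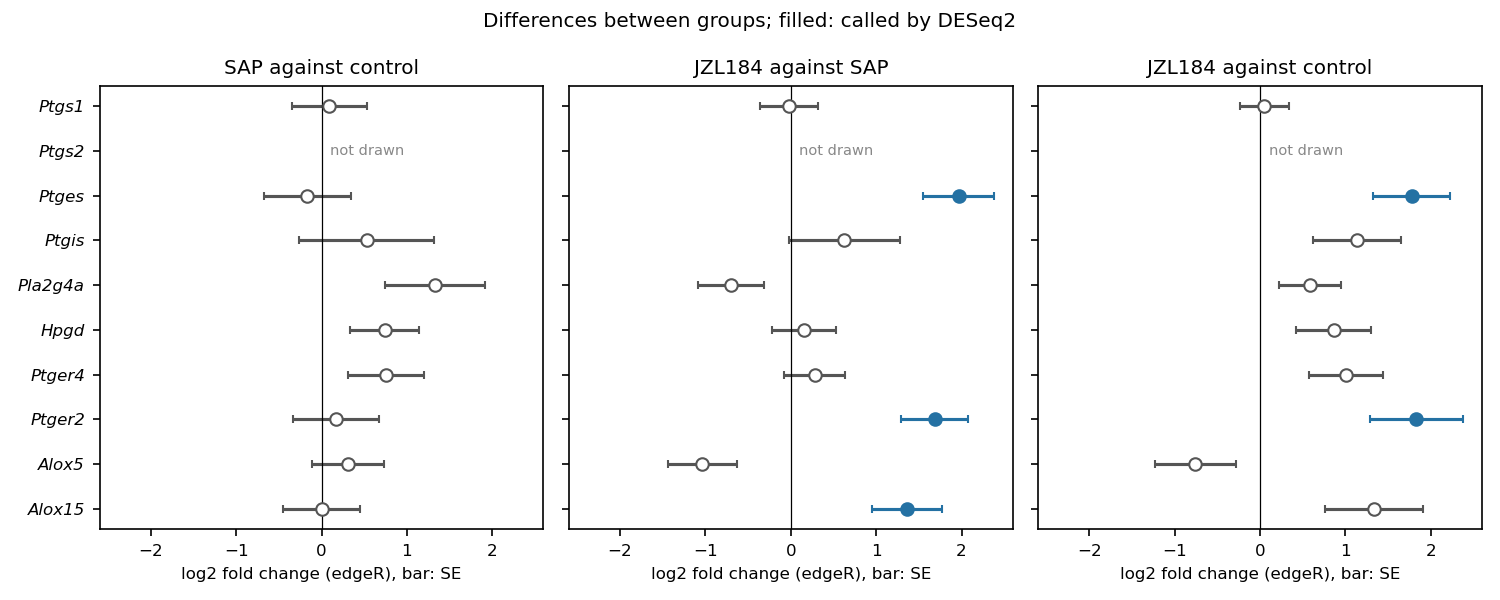
Log2 fold changes from edgeR (points) with their SE (bars) for each gene in the 3 comparisons. Filled points are called by DESeq2 (adjusted p below 0.05 and above 2-fold), which are Ptges, Ptger2 and Alox15 for JZL184 against SAP and Ptges and Ptger2 for JZL184 against control. Ptgs2 is not drawn, since its control libraries held 0 reads or it did not pass the filter.

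Ptges was measured at 6.92, 10.84, 6.86 and 11.76 FPKM in JZL184 libraries 1 to 4 and at 1.96, 1.81, 4.55 and 2.17 FPKM in SAP libraries 1 to 4. The lowest JZL184 library stood well above the highest SAP library, library 3, which itself lay apart from the other SAP libraries. The group means were 9.10 ± 2.57 and 2.62 ± 1.29 FPKM (SD, n = 4 each). By edgeR the log2 fold change was 1.97 (SE 0.42) with an unadjusted p of 0.000864 and an adjusted p of 0.0851, where DESeq2 gave an adjusted p of 0.000759 and limma-voom 0.0315. Leaving out any 1 library gave log2 fold changes of 1.79 to 2.38, while edgeR's adjusted p ran from 0.0414 to 0.219. The lowest was without JZL184 library 1, when edgeR's calls over all genes went from 0 to 655.

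Of the 10 immediate early genes, whose products include EGR factors, 9 had a fold change above 1 for JZL184 against SAP. Their median log2 fold change was 1.02. Their summed levels overlapped between these groups, and edgeR called 0 of the 10, as it called no gene at all in that comparison. Their summed level was 520.7 to 941.3 CPM in JZL184, 241.3 to 529.2 in SAP and 434.1 to 524.1 CPM in control libraries, with all 10 listed genes detected, and against control edgeR called Fosl1 higher and Atf3 and Fosb lower in JZL184. Egr1 itself had 21.0, 9.74, 54.8 and 14.6 CPM in JZL184 libraries 1 to 4, and 10.2 to 14.2 CPM in the SAP group. The JZL184 and SAP groups overlapped for Egr1, whereas control libraries 1 to 3 had 5.1, 5.52 and 7.27 CPM, below every JZL184 library. The part of Egr1 and the other immediate early genes in the Ptges difference was not tested.

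Ptger2, the EP2 receptor for prostaglandin E2, was measured at 0.30, 0.35, 0.70 and 0.44 FPKM in JZL184 libraries 1 to 4 and at 0.11, 0.16, 0.16 and 0.18 FPKM in SAP libraries 1 to 4. JZL184 library 3 was the highest, and the groups did not overlap. The group means were 0.448 ± 0.178 and 0.153 ± 0.030 FPKM (SD, n = 4 each). The log2 fold change was 1.69 (SE 0.39), and the adjusted p was 0.0907 by edgeR, 0.00247 by DESeq2 and 0.0395 by limma-voom. Over the fits that dropped 1 library the edgeR adjusted p ran from 0.0389, without JZL184 library 1, to 0.219. The other receptor among the members, Ptger4, was nearly level, with 1.43 ± 0.567 FPKM in JZL184 and 1.34 ± 0.561 in SAP libraries (SD, n = 4 each) and a log2 fold change of 0.28 (SE 0.36, edgeR adjusted p = 0.652).

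Alox15, which oxygenates arachidonic acid to hydroxylated fatty acids and takes part in making lipoxins, was measured at 0.33, 0.19, 0.63 and 0.42 FPKM in JZL184 libraries 1 to 4 and at 0.15, 0.16, 0.18 and 0.17 FPKM in SAP libraries 1 to 4. JZL184 library 2 stood barely above the SAP libraries and library 3 furthest from them. The log2 fold change was 1.36 (SE 0.41), with an adjusted p of 0.129 by edgeR, 0.0352 by DESeq2 and 0.0981 by limma-voom.

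Alox5, the first enzyme of leukotriene synthesis, was measured at 0.54, 0.46, 0.24 and 0.35 FPKM in JZL184 libraries 1 to 4 and at 0.69, 1.44, 0.90 and 0.68 FPKM in SAP libraries 1 to 4. Every JZL184 library lay below every SAP library, and SAP library 2 was the highest. The log2 fold change was -1.04 (SE 0.40) with an unadjusted p of 0.0275 and an adjusted p of 0.19 by edgeR (DESeq2 0.105, limma-voom 0.11). Without SAP library 2 it was -0.80, with an edgeR adjusted p of 0.406.

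Alox5 is known as an enzyme of myeloid cells, mast cells among them, and the summed mast cell markers were also lowest in the JZL184 libraries. The 9 mast cell markers summed to 17.68 to 38.42 CPM in JZL184, 41.42 to 108.2 in SAP and 169.5 to 182.6 CPM in control libraries, without overlap, but 1 gene, Mcpt2, made up most of the sum in the controls. Over the other 8 markers the sums were 12.5 to 21.2 CPM in JZL184, 24.1 to 37.0 in SAP and 25.1 to 35.1 CPM in control libraries, a split made after the values were seen, with SAP and control overlapping. Kit went another way, at 3.37 to 6.13 CPM in control, 5.98 to 15.0 in SAP and 4.83 to 10.9 CPM in JZL184 libraries. Against SAP edgeR called no mast cell marker, and 6 of the 7 tested had a fold change below 1. Of the mast cell markers, Tpsb2 stayed under 10 reads in every library, and against control edgeR called Fcer1a, Mcpt2 and Cpa3 lower in the JZL184 group. Against control 6 of 8 tested were below 1. The fibroblast marker sums were also lower in JZL184 than in SAP without overlap, at 190.7 to 334.8 against 370.9 to 588.7 CPM, with 406.3 to 517.5 CPM in control libraries, and 7 of 8 had a fold change below 1 against SAP with 0 called by edgeR. Alox5 in control libraries 1 to 3 was measured at 0.69, 0.74 and 0.60 FPKM. Neutrophil markers ran from 14.82 to 297.8 CPM in JZL184, 11.1 to 85.36 in SAP and 3.497 to 6.475 CPM in control libraries, and Elane stayed under 10 reads. Macrophage and monocyte markers overlapped between JZL184 and SAP, at 160.0 to 509.6 and 234.4 to 559.4 CPM, sums in which C1qa was the largest part. Gene by gene, 7 of these 10 had a fold change below 1 against SAP and 3 above. All 8 smooth muscle markers and 6 of 8 endothelium markers were below 1 as well, whereas 6 of 9 enterocyte markers were above. In these lists edgeR called 0 genes, so lower values were not particular to mast cell markers. The 9 tuft cell markers overlapped as well, at 12.08 to 39.3 CPM in JZL184, 30.43 to 41.82 in SAP and 25.73 to 53.81 CPM in control libraries. Of the 7 tuft cell markers tested against SAP, 6 had a fold change below 1, with 0 called by edgeR. Eosinophil markers, a cell type known to express lipoxygenases, reached no more than 1.459 CPM in any library. The part of any of these cells in the values of Alox5 and Alox15, or of other members, was not tested.

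**Figure D3:**
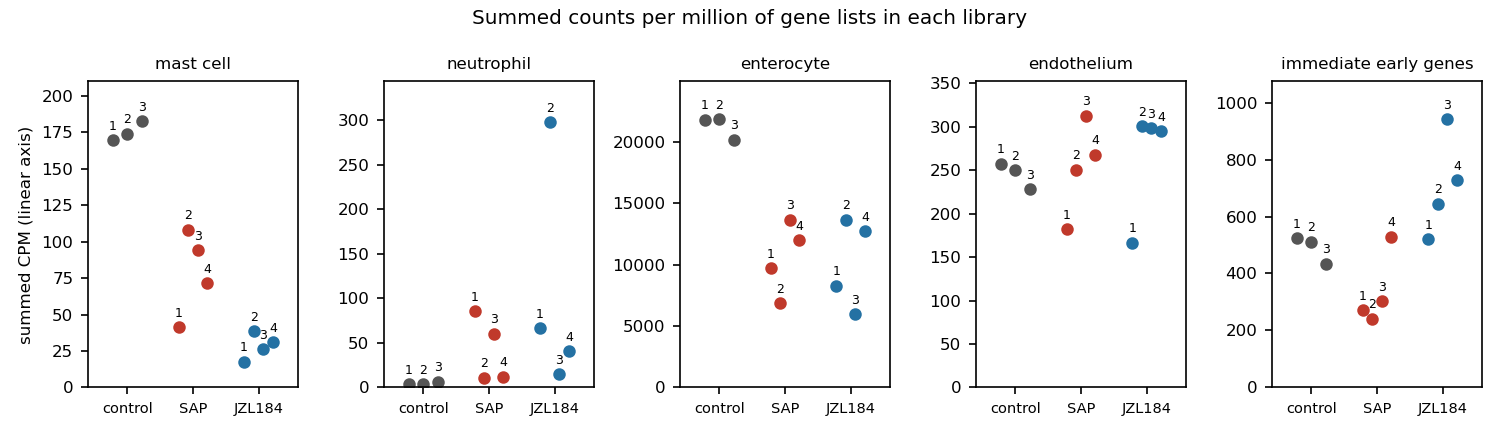
Summed CPM (linear axes from 0) of 4 cell type marker lists and of the immediate early genes in each library, numbered by replicate. Mast cell markers are lowest in the JZL184 libraries (17.68 to 38.42 CPM) and highest in the controls (169.5 to 182.6 CPM), a sum that Mcpt2 dominates, and the SAP and control groups overlap without that gene.

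For the remaining members the groups overlapped and no test passed its threshold. Pla2g4a had 2.01, 1.59, 2.07 and 2.26 FPKM in JZL184 libraries 1 to 4, all close to SAP libraries 3 and 4 and well below SAP libraries 1 and 2. Its log2 fold change was -0.71 (SE 0.39, edgeR adjusted p = 0.306), and -0.46 without SAP library 1 as without SAP library 2. Ptgs2 had 8, 2, 6 and 4 reads in JZL184 libraries 1 to 4, so each held a few reads where SAP libraries 3 and 4 held none and libraries 1 and 2 held 36 and 42. The mean level differed by -0.2175 FPKM, with p = 0.429 by a two-sided exact permutation test, which can reach 0.0286 at the least with 4 against 4 libraries. Ptgis reached 17.5 and 16.33 FPKM in JZL184 libraries 2 and 3 but overlapped with SAP (log2 fold change 0.63, SE 0.65, edgeR adjusted p = 0.578). Markers of endothelium, a source of prostacyclin, overlapped as well, at 166.4 to 300.6 CPM in JZL184, 182.0 to 312.7 in SAP and 228.3 to 257.5 CPM in control libraries. Hpgd (log2 fold change 0.15, SE 0.38) and Ptgs1 (-0.02, SE 0.34) had unadjusted edgeR p values of 0.694 and 0.954, and the sign turned for both under at least 1 alternative.

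The third comparison set JZL184-treated rats with SAP against control rats. It shares the JZL184 libraries with the second comparison and the control libraries with the first, so their values are not independent. Ptges and Ptger2 were again higher in every JZL184 library, at 3.49-fold the control mean in FPKM for Ptges, and both were called by DESeq2 and limma-voom. The edgeR test called 0 of the 9 members that passed the filter, against 2.16% of all genes. DESeq2 called 2 higher, against 6.3% of all genes, and limma-voom 2 higher, against 8.48%. An unadjusted edgeR p below 0.05 was reached by 4 members (Ptges, Ptger2, Ptger4 and Alox15, all higher), against 13.8% of all genes. Normalized counts did not overlap for 4 higher members (Ptges, Pla2g4a, Ptger2 and Alox15) and for Alox5, which was lower, against 18.0% and 20.3% of all genes. The median log2 fold change was 1.005 over the members that passed and 0.08 over all 15916 genes tested.

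In the control libraries Ptges was measured at 3.67, 2.81 and 1.97 FPKM, all below the lowest JZL184 library. The log2 fold change was 1.78 (SE 0.46), with an adjusted p of 0.0717 by edgeR, 0.00546 by DESeq2 and 0.0133 by limma-voom. Of 17 alternatives 9 called it. Among these were the fits with control libraries 1 and 2 separate and those with the replicate block. The block fits also took these control libraries as separate samples. The edgeR adjusted p was 0.0343 without JZL184 library 1 and 0.0381 without JZL184 library 3. Leaving out any 1 library gave log2 fold changes of 1.41 to 1.92. Without control library 3 only 1 control sample is left, so that the spread then comes from the JZL184 group alone. Ptger2 was measured at 0.09, 0.06 and 0.17 FPKM in the control libraries, well under the JZL184 libraries. Its log2 fold change was 1.83 (SE 0.55), with an adjusted p of 0.094 by edgeR, 0.0165 by DESeq2 and 0.0199 by limma-voom. Over the fits that dropped 1 library the edgeR adjusted p ran from 0.0451, without JZL184 library 1, to 0.21.

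Alox15 had 0.12, 0.10 and 0.19 FPKM in the control libraries, and JZL184 library 2 equaled control library 3 at that precision. The log2 fold change was 1.34 (SE 0.58, edgeR adjusted p = 0.185). Alox5 had 0.69, 0.74 and 0.60 FPKM in the control libraries, all above the JZL184 libraries (log2 fold change -0.76, SE 0.47, edgeR adjusted p = 0.337). Ptger4 (1.01, SE 0.43), Ptgis (1.14, SE 0.52), Hpgd (0.86, SE 0.44) and Pla2g4a (0.59, SE 0.36) had log2 fold changes above 0 with edgeR adjusted p values of 0.184 to 0.327. The 20 reads of Ptgs2 in the JZL184 group were at least 5.11-fold the control floor of 3 reads over the group, and the two-sided exact permutation test of the FPKM gave p = 0.133, where 4 against 2 samples can reach 0.0667 at the least. When control libraries 1 and 2 entered separately, 6 members were called higher by DESeq2, which were Ptges, Ptger2, Ptger4, Ptgis, Ptgs2 and Alox15, a setting in which 19.4% of all genes were called.

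Beyond the members, 75 other gene symbols of eicosanoid metabolism and signaling were listed, of which 71 had reads. Against SAP, 53 of them passed the filter in the JZL184 comparison, and 0 were called by edgeR, 4 higher and 2 lower by DESeq2, and 2 higher and 2 lower by limma-voom. All genes were called lower in 3.41% by DESeq2 and 2.39% by limma-voom. At an unadjusted edgeR p below 0.05 were 6 higher and 6 lower of the 53, against 10.3% and 11.1% of all genes, which is near the background. Their median log2 fold change was -0.09. Higher were Cyp2j10, of an epoxygenase family with near-identical copies between which reads could be split (2.14 ± 0.596 against 0.613 ± 0.194 FPKM, SD, n = 4 each, log2 fold change 1.97, edgeR adjusted p = 0.0851), and Ltc4s, which makes leukotriene C4 (1.09 ± 0.859 against 0.215 ± 0.068 FPKM, log2 fold change 2.52, edgeR adjusted p = 0.0951). The secreted phospholipase Pla2g12a had a log2 fold change of 1.79 (edgeR adjusted p = 0.0965), and Aloxe3, Pla2g4f and Tbxa2r, the thromboxane receptor, lay at 1.89, 1.30 and 1.27. DESeq2 called Cyp2j10, Ltc4s and Pla2g12a, and also Pla2g4d, which failed the edgeR filter.

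Lower against SAP were Pla2g4c, a relative of Pla2g4a (0.58 ± 0.628 against 13.9 ± 12.8 FPKM, SD, n = 4 each, log2 fold change -4.37, edgeR adjusted p = 0.0909), and the lipase Abhd12 (38.4 ± 15.2 against 103.4 ± 27.7 FPKM, log2 fold change -1.27, edgeR adjusted p = 0.0895), both called by DESeq2 and limma-voom. Lta4h, which makes leukotriene B4, lay at -1.32, the leukotriene receptor Cysltr1 at -2.05, and Daglb and Dagla, which make 2-arachidonoylglycerol, at -0.88 and -0.82, with edgeR adjusted p values of 0.184 to 0.23. Over the 10 genes of lipoxygenase and leukotriene synthesis tested, 5 had a fold change above 1 and 5 below. Mgll, which encodes MAGL, was measured at 1.56 to 10.49 FPKM in JZL184 libraries (4.67 ± 4.04, SD, n = 4), 3.68 ± 0.929 in SAP (SD, n = 4) and 5.04 ± 1.11 in control libraries (SD, n = 2). Its log2 fold change was 0.44 against SAP (edgeR adjusted p = 0.625), -0.21 for JZL184 against control (0.855) and -0.62 for SAP against control (0.462).

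**Figure D4:**
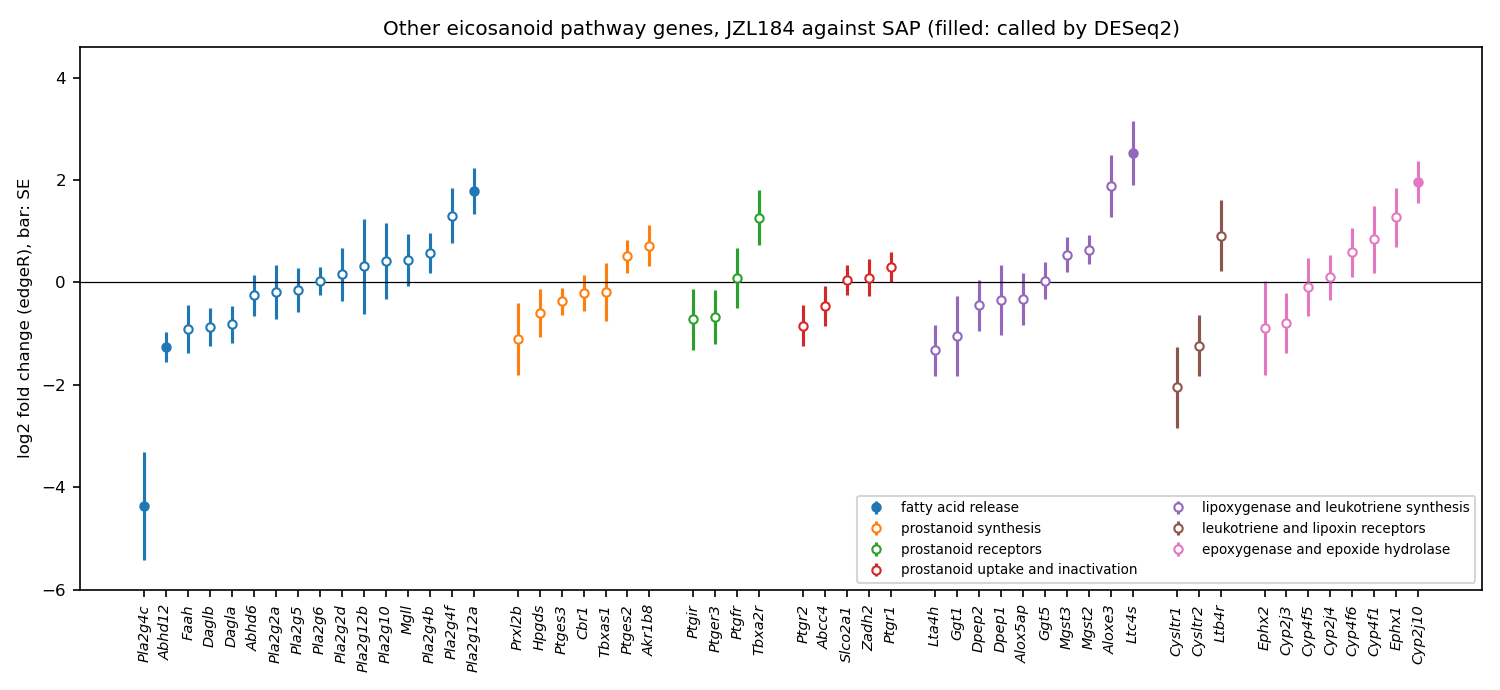
Log2 fold changes from edgeR, JZL184 against SAP, with their SE (bars) for the 53 other eicosanoid pathway genes that passed the filter, ordered within their roles (colors). Filled points were called by DESeq2, with Cyp2j10, Ltc4s and Pla2g12a above 0 and Pla2g4c and Abhd12 below.

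Between SAP and control, 57 of the other pathway genes passed, and 0 were called by edgeR, DESeq2 or limma-voom. At an unadjusted edgeR p below 0.05 were 1 higher (the prostacyclin receptor Ptgir, log2 fold change 2.97) and 7 lower, against 5.69% and 3.4% of all genes, and the median was -0.21. The lower ones with the smallest p were Pla2g2f (-1.83), Ggt1 (-1.82), Cyp4a3 (-2.92), Abhd6 (-0.99), Alox12 (-1.49) and Ptges2 (-0.81), all with an edgeR adjusted p of 0.459. Ptges2 is a second prostaglandin E synthase, at 5.26 ± 1.21 FPKM in SAP (SD, n = 4) and 8.28 ± 0.926 in control libraries (SD, n = 2).

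Between JZL184 and control, 56 passed, with 0 calls by edgeR, 3 higher and 6 lower by DESeq2, and 3 higher and 12 lower by limma-voom. Among those that DESeq2 called higher, Pla2g4d had failed the edgeR filter. Over all genes 5.43% were called lower by DESeq2 and 9.78% by limma-voom. At an unadjusted edgeR p below 0.05 were 6 higher and 12 lower, where 12.5% of all genes were lower, and the median was -0.31. The higher ones were Cyp2j10 (2.30, edgeR adjusted p = 0.0536), Pla2g4f (3.85), Akr1b8 (0.94), Pla2g12a (1.53), Ltb4r, a leukotriene B4 receptor (2.16), and Ptgfr, the receptor for prostaglandin F2 alpha (1.499). Among the lower ones were 2 enzymes that lead toward prostaglandin F2 alpha, Cbr1 (-1.12, edgeR adjusted p = 0.0631) and Prxl2b (-2.61, adjusted p = 0.0651), both called by DESeq2. Pla2g4c (-3.53), Abhd12 (-1.27), Pla2g2f (-2.91) and Ggt1, which trims leukotriene C4 to leukotriene D4 (-2.89), were also lower, with edgeR adjusted p values of 0.0837 to 0.0943. The summed enterocyte markers (9 of 10 listed had reads) were also lower than in the controls, with 20169 to 21859 CPM in control, 6847 to 13675 in SAP and 5944 to 13674 CPM in JZL184 libraries. However, 1 gene, Fabp6, made up most of the sum in the controls. It had 11100 to 12800 CPM in control, 1390 to 7060 in SAP and 40.7 to 5510 CPM in JZL184 libraries. Gene by gene 5 enterocyte markers had a fold change above 1 against control and 4 below, and the part of enterocytes was not tested.

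Across the 10 samples, some members tracked each other. Pearson's r of log2(CPM + 1) was 0.93 between Ptger2 and Alox15, 0.92 between Ptgs2 and Pla2g4a, 0.77 between Ptges and Ptger2 and -0.87 between Alox5 and Alox15. These are descriptions over samples that share groups and, for SAP libraries 1 and 2, a shift toward long genes. Among 11271 genes with at least 100 reads on average, those most like Ptges were LOC100911068 (r = 0.949, Spearman's rho = 0.964), Isg20l2 (0.946, rho = 0.976) and Adora2a (0.946, rho = 0.952), and those most like Pla2g4a were Zeb2 (0.988, rho = 0.952), LOC102556092 (0.983, rho = 0.927) and Rps6ka3 (0.976, rho = 0.903). The pattern of Ptgis was nearest to Mcrip1, Ccnq and Cd63 (r of 0.955 to 0.956), that of Ptger4 to Slc33a1, Ppp3ca and Arfip1 (0.954 to 0.957), that of Hpgd to Enpp2, Cndp1 and RGD1565355 (0.879 to 0.904) and that of Ptgs1 to Macrod1, Galk2 and Rnase4 (0.889 to 0.908).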

How the data were processed

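Total RNA of rat ileum was sequenced as stranded mRNA libraries. The authors removed reads with unknown bases, trimmed the rest with FASTX-Toolkit, dropped short reads and aligned the remainder to the mRatBN7.2 genome with HISAT2. From uniquely aligned reads they derived a count per gene, deposited as raw numbers, and the FPKM, deposited with 2 decimals. For the counting tool, its strand setting and the annotation of genes, the sources used here give nothing. Multi-mapping reads were dropped, so genes with near-identical copies can be undercounted.

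Libraries were grouped by their treatment labels. Pairs of groups were compared over all genes on the counts with edgeR 4.0.16 (quasi-likelihood test, TMM, minimum count 10) in R 4.3.3. The SE was obtained from the log2 fold change and the F statistic of the same fit. Alternatives were DESeq2 1.42.0, the tool of the study's methods, limma-voom (limma 3.58.1, sample quality weights), DESeq2 size factors in edgeR, no filter, no fold change threshold, all groups in 1 fit, control libraries 1 and 2 as separate samples, the replicate number as a block, offsets for the length trend (lowess span 0.3), and each library left out in turn. The fits with the replicate block also kept control libraries 1 and 2 as separate samples. Counts and FPKM together gave the gene lengths. The scripts were tested on counts simulated from these data, with 200 genes changed 4-fold. In the order of the 3 comparisons, edgeR recovered 8.5%, 47.5% and 23.5% of them, with 1, 5 and 6 false calls. DESeq2 recovered 60.5%, 78.0% and 67.0%, with 47, 30 and 60 false calls. For limma-voom it was 10.0%, 45.5% and 19.0%, with 2, 5 and 3. A gene that edgeR does not call can therefore still differ between groups. A gene that DESeq2 alone calls, such as Alox15, can be a false call, since DESeq2 made more of these than the other tools in every comparison. Ptgs2 was compared on FPKM where it failed the filter. Levels of different genes were compared in FPKM only.

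Of the other pathway genes, those with an unadjusted edgeR p below 0.05 are named, at most 6 per direction with the smallest p, and Mgll always. For likeness the 3 genes with the highest r are named, for members with at least 100 reads on average. The members, gene lists, pairs of genes and promoters shown were chosen with earlier results of these data known. Exocrine pancreas markers (5 with reads) stayed under 10 reads in every library. Tables and plots were made in Python 3.11.15 (numpy 2.4.6, pandas 2.3.3, scipy 1.17.1, matplotlib 3.10.9). No genome of the files' build was used here, so gene coordinates are not given apart from RefSeq's GRCr8 promoters.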

Additional observations from a re-analysis of the deposited data

Results flagged for a closer look

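One level stood apart from its group. Ptges in SAP library 3 was 4.55 FPKM, and its gap to the next SAP library covered 0.869 of the group's range, above Dixon's 95% limit for 4 samples. The 10 members were examined in the SAP and JZL184 groups, which makes 20 tests, and chance flags about 1 group in 20. Without that library the log2 fold change of Ptges for JZL184 against SAP was 2.38 (edgeR adjusted p = 0.161).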

How the results depend on the processing

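The direction of each member's log2 fold change was kept in 450 of 479 alternatives over 30 member results, and 29 alternatives in 8 results turned it. Members called went from 0 to 1 for SAP against control with DESeq2 and separate control libraries. For JZL184 against SAP they went from 0 to 3 with DESeq2, 2 with limma-voom and 1 with all groups in 1 fit. For JZL184 against control they went from 0 to 2 with DESeq2, limma-voom, separate control libraries and the replicate block, to 1 with no filter and with length offsets plus the block, and to 6 with DESeq2 and separate control libraries. Both block settings also took control libraries 1 and 2 as separate samples. With 1 library left out, counts ranged from 0 to 2 in both JZL184 comparisons and stayed at 0 for SAP against control.

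Turned log2 fold changes for SAP against control were Ptgs1 (replicate block -0.26, block with length offsets -0.20, one library left out -0.21 to 0.29), Ptges (length offsets 0.17, with the block 0.19, one library left out -0.587 to 0.007), Ptgis (block -0.44, with length offsets -0.072), Ptger2 (length offsets -0.10, with the block -0.19) and Alox15 (DESeq2 size factors -0.009, no filter -0.001, all groups in 1 fit -0.038, length offsets -0.109, with the block -0.082, one library left out -0.074 to 0.384). For JZL184 against SAP they were Ptgs1 (limma-voom 0.013, block 0.073, length offsets 0.024, both 0.103, one library left out -0.22 to 0.28) and Hpgd (length offsets -0.004, one library left out -0.12 to 0.41), and for JZL184 against control Ptgs1 (one library left out -0.046 to 0.137). None of these was called, and the causes were not tested.

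Over all genes, calls ranged from 0 to 1469 for SAP against control, from 0 to 1283 for JZL184 against SAP and from 1 to 3498 for JZL184 against control, where edgeR called 0, 0 and 343. The replicate numbers do not pair the samples, since same-numbered samples deviated from their group means with correlations of -0.53 to 0.20 and 3 of 20 correlated best with their own number. Depth limits Ptgs2, Ptger2, Alox5 and Alox15, which averaged under 100 reads per library.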

Other observations

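Some ratios between members, chosen after their values were seen, set the JZL184 libraries apart. For Alox15 over Alox5 this had to follow from the levels given above, with Alox15 highest or tied and Alox5 lowest in the JZL184 libraries, and it is no further result. Alox15 stood at 0.611, 0.413, 2.62 and 1.2 times Alox5 in FPKM in JZL184 libraries 1 to 4, at 0.111 to 0.25 times in SAP and at 0.135 to 0.317 times in control libraries. Ptges stood at 1.34 to 3.75 times Ptgs1 in JZL184, 0.342 to 0.925 times in SAP and 0.506 to 0.953 times in control libraries. Against Hpgd, which inactivates the product of Ptges, the ratio of Ptges overlapped between groups, at 0.0391 to 0.174 in JZL184, 0.0107 to 0.0644 in SAP and 0.0284 to 0.0825 in control libraries.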
